A study of Dicentrarchus labrax with 16 samples.

Results

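The CpG cytosines described here were those at which 1 of 3 sea bass differed from the other 2 fish in testis, and in the same direction in muscle. They were chosen from the methylation levels themselves. A cytosine was a member where the level of 1 fish lay 40 percentage points or more from each of the other 2 fish in testis, on the same side, and 20 points or more on that side from the mean of the other 2 fish in muscle. Of 361535 cytosines tested on 24 linkage groups, 3170 were members, or 0.877% (95% Wilson interval 0.847 to 0.908). They are called member cytosines below, and the fish that differed is called the deviating fish. The 3170 cytosines lay in 3063 CpGs, since both strands of 107 CpGs were members, with 1612 on the forward and 1558 on the reverse strand.

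The study set testis against muscle in wild European sea bass (Dicentrarchus labrax). The fish were adults outside the reproductive season, caught by speargun, with no treatment. Testis holds several somatic and germ cell types, and muscle is mostly muscle fibres. Reduced representation bisulfite sequencing (RRBS) was done on 3 testes and 3 muscles, with 1 library per fish and tissue. Testis and muscle libraries with the same number were taken to be from the same fish.

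In vertebrates a methyl group sits mostly on cytosines followed by guanine, and because CpG reads the same on both strands, maintenance methylation normally keeps both cytosines of a pair in the same state. The mark can differ between individuals through their DNA sequence, their development or their surroundings. In RRBS, DNA is cut at CCGG and short fragments are treated with bisulfite and sequenced, so that an unmethylated cytosine appears as T while a methylated one stays C. A C to T variant in the DNA of a fish also reads as T, so at a single cytosine it cannot be told apart from loss of methylation in these files. The part of such variants in the differences below was not tested.

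The libraries listed between 1179764 and 1266961 cytosines in testis, and between 961700 and 1149189 in muscle. Median coverage at the tested cytosines was 70, 108 and 88 reads in testis of fish 1, 2 and 3, and 52, 133 and 52 reads in muscle. Levels of exactly 0 or 100% made up 24.2%, 20.03% and 20.4% of the tested cytosines in the testis libraries, against 51.4%, 32.2% and 52.7% in the muscle libraries. The range of the 3 fish had a median of 5.26 points in testis and 11.6 points in muscle over all tested cytosines.

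Coverage at the members was close to that elsewhere. The lowest of the 3 testis libraries had a median of 60.5 reads at members and 65 reads at all tested cytosines. In muscle these medians were 31 and 35 reads. The coverage of the deviating fish over that of the other 2 fish, each set against its library's median, had a median ratio of 0.986 in testis and 0.921 in muscle. For any 1 fish against the other 2 over all tested cytosines, the ratios were 0.989 in testis and 0.952 in muscle. No fish supplied most of the members, since each was the deviating fish at 1024 to 1092 of them. At 121 members 2 fish met the rule, and the fish with the larger summed difference was taken. On sequence not placed on a linkage group, 1184 of 166766 cytosines met the same limits, or 0.71%.

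The deviating fish was less methylated than the other 2 fish at 2203 members (69.5%) and more methylated at 967 (30.5%). These levels chose the members, so they are given as a description with no test. Where the deviating fish was lower, its testis level ran between 0 and 60% with a median of 37.3%, and the mean of the other 2 fish had a median of 94.3%. In muscle at the same cytosines the medians were 22.2% in the deviating fish and 91.5% in the other 2 fish. Where the deviating fish was higher, its median level in testis was 91.2%, against 23.8% in the other 2 fish. In muscle these medians were 91.7% and 16.1%. The typical member was thus a highly methylated CpG that 1 fish had at a lower level, and 50.9% of all tested cytosines had a mean testis level of 80% or more.

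**Figure D1:**
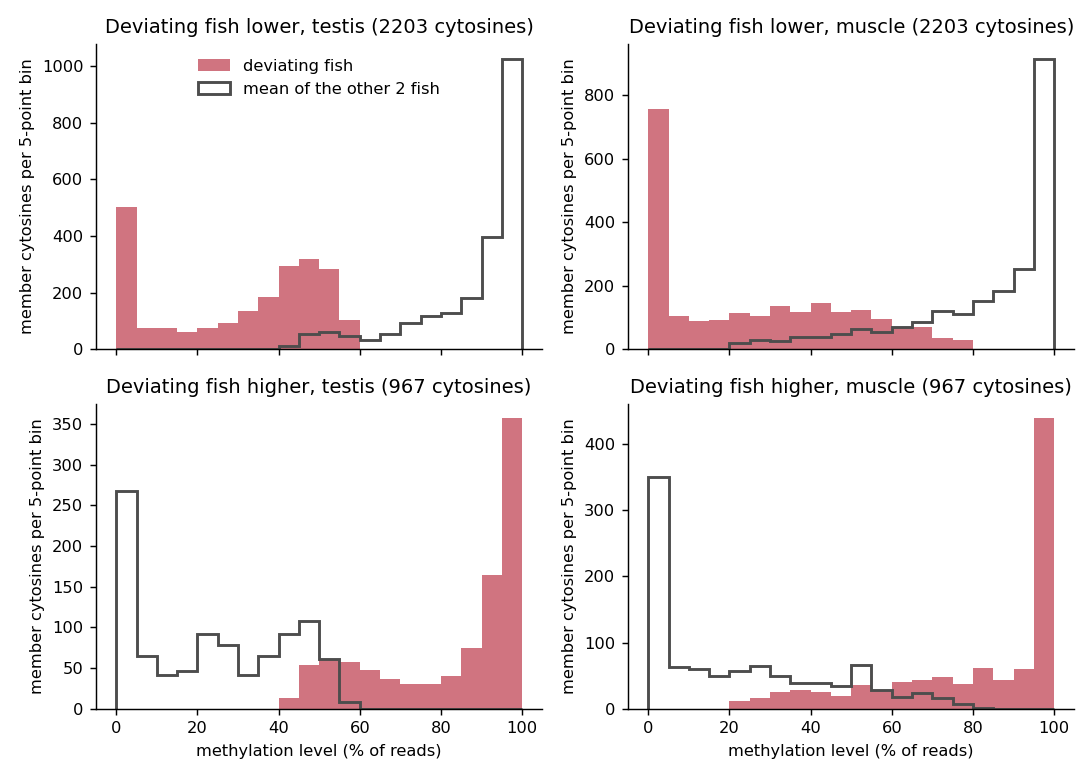
Histograms of methylation level (percent of reads, 5-point bins) at member cytosines, in testis and muscle, for members with the deviating fish lower (2203) and higher (967). Filled bars show the deviating fish and outlines the mean of the other 2 fish. Where the deviating fish was lower, its testis level is under 10% at 26.2% and between 30 and 60% at 59.9%, while the other 2 fish have a median of 94.3%.

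Among the 2203 members with the deviating fish lower, its testis levels were read in bands. The testis limit of 40 points keeps the level of that fish at 60% or less, so the rule sets the upper edge of these bands. The level was under 10% at 577 of them (26.2%), between 10 and 30% at 305 (13.8%), and between 30 and 60% at 1319 (59.9%). The commonest arrangement was an intermediate level in the deviating fish with both of the other fish at 80% or more, found at 1272 members (57.7%). A full contrast, with the deviating fish under 10% and both of the others at 80% or more, was found at 187 (8.49%). In muscle the deviating fish was under 10% at 864 (39.2%) and between 30 and 60% at 735 (33.4%). Among the 967 members with the deviating fish higher, it reached 80% or more at 636 (65.8%) in testis and 605 (62.6%) in muscle. Both of the other fish were under 20% at 362 of these (37.4%) in testis and 433 (44.8%) in muscle.

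The band in testis was compared with that in muscle, which the rule partly fixes. Of the 577 members with the deviating fish under 10% in testis, 518 (89.8%) were also under 10% in that fish's muscle, against 92.2% of all tested cytosines and fish under 10% in testis. Of the 1504 members of either direction with the deviating fish between 30 and 60% in testis, 738 (49.1%) lay in the same band in muscle, against 33.2% of all tested cytosines and fish in that band. Their median level in muscle was 40%. Across all members the testis and muscle levels of the deviating fish lay within 10 points of each other at 1638 (51.7%). Over all tested cytosines and fish this share was 66.1%. The absolute difference between the tissues had a median of 9.41 points in the deviating fish at members and 5.0 points over all cytosines and fish. Levels of exactly 0 or 100% in the deviating fish were found at 319 members (10.1%) in testis and 783 (24.7%) in muscle.

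The difference from the mean of the other 2 fish had a median of 53.1 points in testis (40 to 100) and 56.0 points in muscle (20 to 100). It was 40 points or more in muscle as well at 2366 members (74.6%). In muscle the deviating fish lay outside both of the others at 3015 members (95.1%), and 20 points or more from each at 2723 (85.9%). The other 2 fish were close to each other in testis, with a median gap of 3.799 points, and less so in muscle, with 9.36 points. The testis and muscle differences had a Pearson r of 0.42 over the 3170 members. This value is a description, since members in 1 region share reads and both differences were limited by the rule.

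How often muscle followed testis can be read from the 4128 cytosines (1.14% of those tested) that met the testis limit alone. In muscle the same fish differed by 20 points or more with the same sign at 3170 (76.8%), which are the members. It differed by 20 points or more with the opposite sign at 188 (4.55%), and by less either way at 770 (18.7%). Over all tested cytosines, 10.9% showed a difference of 20 points or more in muscle for a given fish and sign. The shares were close in both directions. The same sign was found at 2203 of 2878 (76.5%) with the deviating fish lower and at 967 of 1250 (77.4%) with it higher, and the opposite sign at 137 (4.76%) and 51 (4.08%).

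Starting from muscle gave another picture. In muscle 1 fish lay 40 points or more from each of the others at 44128 cytosines (12.2%). In testis that fish differed by 20 points or more with the same sign at 5281 of these (12.0%), with the opposite sign at 1111 (2.52%), and by under 10 points at 29443 (66.7%). Most large deviations of 1 fish in testis were found in its muscle, and most large deviations in muscle were not found in its testis. The backgrounds differed too. Over all tested cytosines, 1.91% showed a difference of 20 points or more in testis for a given fish and sign, against 10.9% in muscle. The part of these backgrounds in the contrast was not tested. Muscle levels were more often exactly 0 or 100% and had lower coverage in 2 of the 3 fish, and the part of this in the contrast was not tested.

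**Figure D2:**
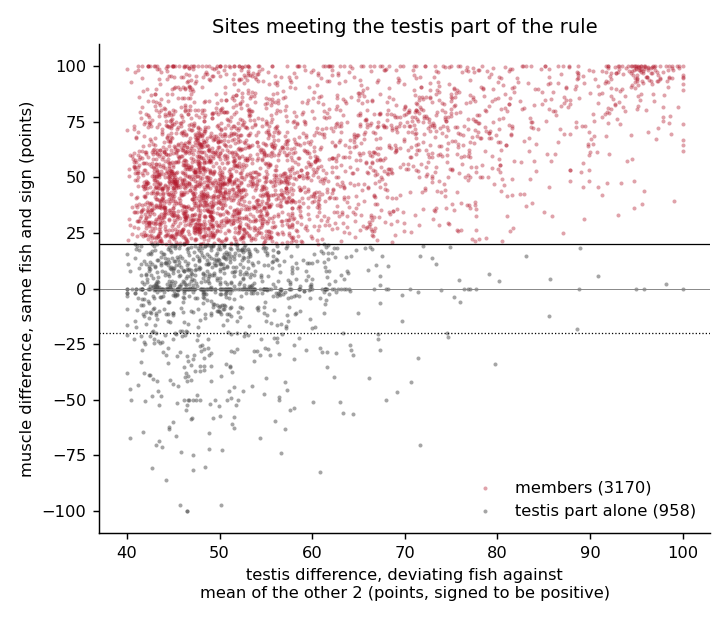
Each point is 1 of the 4128 cytosines that met the testis limit, with the testis difference of the deviating fish on the horizontal axis and the muscle difference of the same fish, signed alike, on the vertical axis (both in percentage points). The 3170 members lie at 20 points or more in muscle, 770 sites lie within 20 points of 0, and 188 lie at 20 points or more the other way.

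Many cytosines lay close to the limits. The smaller testis difference was within 5 points above the limit of 40 at 937 members, and within 5 points below it at 992 cytosines that met the muscle limit. The muscle difference was within 5 points above the limit of 20 at 162 members and within 5 points below it at 111 cytosines. Just inside the testis limit, at position 13307146 of LG13 (reverse strand), the deviating fish had 10% in testis, against 66.7% and 50% in the other 2 fish. In muscle it had 31.8%, against 85.3% and 74.1%. Just outside it, at position 28121978 of LG14 (reverse strand), the fish that stood apart had 24.7% in testis, against 70.8% and 64.7%, and 3.70% in muscle, against 100% and 93.8%. The smaller testis differences there were 40 and 39.99 points. The outside cytosine had the larger difference in muscle, with 93.2 points against 47.9 points at the inside one.

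The cytosine on the other strand of the same CpG is covered by its own reads, which the rule did not use for that member. It passed the coverage limits at 458 members (14.4%), against 17.9% of all tested cytosines. These 458 lay in 351 CpGs, since at 214 of them the other strand was itself a member and the CpG counts once from each strand. It showed the difference in testis, defined as 20 points or more with the member's sign, at 367 of the 458 (80.1%, Wilson interval 76.2 to 83.5). Over all cytosines with both strands tested, 1.49% showed such a difference for a given fish and sign. In muscle the other strand showed it at 336 (73.4%), against 8.49% over all such cytosines, and in both tissues at 319 (69.7%). Among the 244 whose other strand was not itself a member, it did so at 153 (62.7%) in testis and 124 (50.8%) in muscle. Leaving out members also removes other strands that met the limits of the rule. Over all 458 other strands, members among them included, the median difference was 43.8 points in testis and 43.6 points in muscle. The 458 members themselves had 52.2 points in testis and 52.7 points in muscle. Intervals throughout cover counting error alone, since the reads carried no molecular identifiers and neighbouring cytosines share reads. Agreement of the strands does not set C to T variants apart, since a variant breaks the CpG for both strands. Their part in it was not tested.

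The strands disagreed at a smaller group. At 65 of the 458 (14.2%) the other strand differed by under 10 points in testis, and at 1 it differed by 20 points or more the opposite way. The share that showed the difference was 77.1% (232 of 301, 72.0 to 81.5) with the deviating fish lower. With it higher, the share was 86.0% (135 of 157, 79.7 to 90.6). The difference between these shares was not tested. Other strands that were themselves members are counted in all shares of this paragraph. The following bands cover members with the deviating fish lower. Where such a member was under 10% in the deviating fish, the other strand showed the difference at 41 of 53 (77.4%), with a median level of 1.43% there. Where such a member was between 30 and 60%, the other strand did so at 167 of 207 (80.7%), with a median level of 53.9%. That strand was itself a member, with the same fish and direction, at 200 of the 458 (43.7%), against a member share of 0.709% among all cytosines with both strands tested.

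The reads of the other strand were also put to a test, which for the 214 above includes cytosines that the rule chose on their own reads. Read counts, scaled up to the median coverage of the deepest library, were regressed on fish by logistic regression with a likelihood ratio test. Benjamini-Hochberg adjustment ran over all cytosines that passed the coverage limits, unplaced sequence included. A cytosine was called at an adjusted p under 0.01 and a range over 15 points. In testis 386 of the 458 (84.3%) were called, against 9.91% of all tested cytosines and 7.95% of those with both strands tested. In muscle 395 (86.2%) were called, against 42.2% and 36.5%. With no scaling of the counts, 374 of the 458 were called in testis and 374 in muscle. The shares above over all tested cytosines are with scaling, and those without it are not given here. Among the 244 not themselves members, 172 (70.5%) were called in testis and 181 (74.2%) in muscle. With 1 library per fish and tissue this test measures the counting of reads and not the spread between samples of the same fish. Scaling up also counts more reads than were sequenced in all libraries but the deepest. The p-values with scaling thus overstate even the evidence from read counts.

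**Figure D3:**
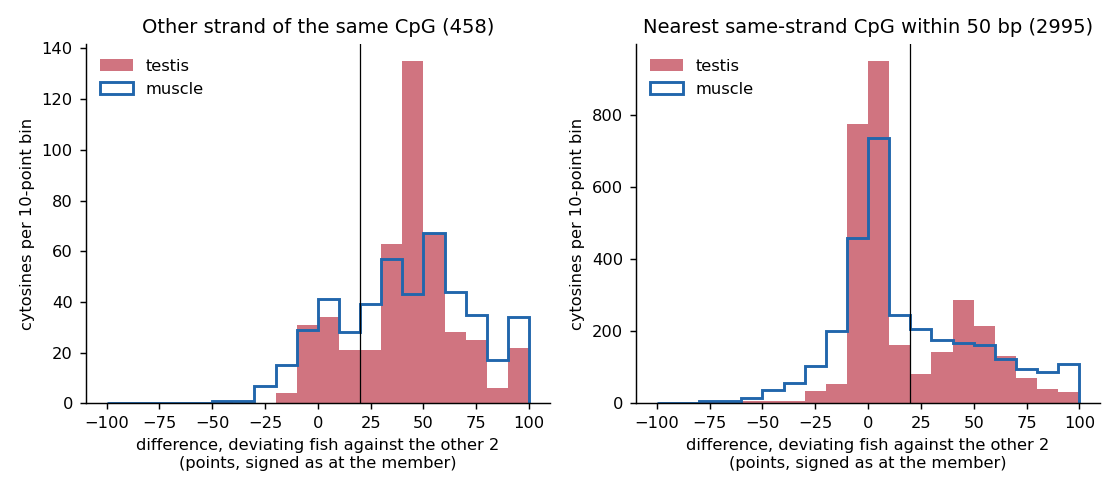
Histograms of the difference of the deviating fish from the other 2 fish (percentage points, 10-point bins, signed as at the member) on the other strand of members (458) and at the nearest cytosine of the same strand within 50 bp (2995). Filled bars show testis, outlines show muscle, and the line marks 20 points. On the other strand 80.1% lie at or beyond the line in testis, and at the nearest cytosine 33.3% do. Both panels include cytosines that were themselves members.

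The members with the largest summed difference whose other strand was tested are extreme cases and not typical members. Among members with the deviating fish lower, an intermediate testis level in that fish was far commoner than one in the lowest band, as given above. In muscle the lowest band held more of these members than the intermediate band. The bands differ in width. At position 21288213 of LG20 (reverse strand) the deviating fish was lower, with 4.76% in testis (interval 1.87 to 11.6), against 97.3% and 100% in the other 2 fish. In muscle it had 0.893% (0.158 to 4.89), against 100% in both others, with 26 to 112 reads behind each value. The groups were at opposite ends of the scale on this strand. On the forward strand, at 21288212, the contrast was smaller, with 29.4% in testis, against 98.2% and 80%, and 29.6% in muscle, against 56.1% and 65.8%. At position 12687822 of LG17 (forward strand) the deviating fish had 1.47% in testis (0.404 to 5.20), against 96.4% and 99.7%. In muscle it had 5.41% (1.495 to 17.7), against 100% and 97.7%. On the other strand, at 12687823, the deviating fish was again lowest, with 0% in both tissues of the deviating fish on 52 and 50 reads, against 93.6% and 91.0% in testis and 82.4% and 91.2% in muscle.

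The opposite direction was as sharp. At position 11004 of LG6 (forward strand) the deviating fish had 100% in testis on 67 reads (94.6 to 100), against 0% and 0.725% in the other 2 fish. In muscle it had 100% on 29 reads (88.3 to 100), against 0% in both others. The reverse strand at 11005 gave 96.3% in testis, against 0% and 2.78%, and 100% in muscle, against 0% and 0%. At position 26490602 of LG1A (forward strand) the deviating fish had 97.0% in testis (84.7 to 99.5) and 100% in muscle (84.5 to 100), against 0% in both others in each tissue. The reverse strand at 26490603 had 95.2% in testis, against 0.658% and 0%, and 98.8% in muscle, against 0% in both others. At both CpGs the deviating fish lay far above the other 2 fish on either strand in either tissue. Over all these cytosines the widest 95% interval of a level was 25.2 points. Genes and sequence at these positions were not analysed here.

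Cytosines beside a member on the same strand mostly did not share its difference. The nearest one within 50 bp was available for 2995 members (94.5%). It showed the difference in testis at 996 (33.3%), against 1.91% of all tested cytosines for a given fish and sign. In muscle it did so at 1125 (37.6%), against 10.9%. These counts include nearest cytosines that were themselves members, which the rule chose on their own levels. Over all same-strand cytosines at 2 to 50 bp, 35.45% showed the difference in testis, and 16.89% with members left out. At 1728 (57.7%) the nearest cytosine differed by under 10 points in testis. In the deviating fish that cytosine then had a median testis level of 95.7%, although the median distance was 9 bp, against 8 bp where the difference was shared. Where the difference was shared, the neighbour's median level in the deviating fish was 50%.

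The other strand was set beside the nearest cytosine where both were tested. It showed the difference in testis at 191 of 232 (82.3%, 76.9 to 86.7) where the nearest cytosine differed by under 10 points. Where the nearest cytosine shared the difference, the other strand showed it at 138 of 174 (79.3%, 72.7 to 84.7). Both shares include other strands that were themselves members, chosen by the rule on their own reads. The split without them is not given here. The muscle difference of the member had a median of 56.5 points where the neighbour differed by under 10 points and 54.0 points where the neighbour shared it. The difference between the following shares was not tested, and neighbours that were themselves members are counted in them. With the deviating fish lower at under 10%, the neighbour shared the difference at 123 of 552 (22.3%, 19.0 to 25.9), and with it lower at 30 to 60%, at 410 of 1267 (32.4%, 29.8 to 35.0). With the deviating fish higher, it did so at 321 of 908 (35.4%, 32.3 to 38.5).

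With distance the share fell toward the background. Counting all cytosines of both strands around members, 34.7% showed the difference in testis at 2 to 50 bp, 37.2% at 51 to 200 bp and 33.1% at 201 to 500 bp. At 501 to 1000 bp the share was 10.6%, and at 1001 to 5000 bp it was 3.24%. Over all tested cytosines 1.91% showed such a difference for a given fish and sign. Of the neighbours up to 500 bp, 18.3 to 22.0% were themselves members. With members left out of the neighbours, the shares in testis were 17.9%, 20.5%, 18.8%, 7.33% and 2.30%. A few dense regions weighed on these values. With the region holding the most members left out, and neighbours that were members counted, the shares were 31.8%, 29.4%, 25.1%, 10.2% and 2.53%. Without such neighbours they were 17.1%, 17.8%, 15.25%, 7.16% and 1.86%. With each region counted once, and neighbours that were members counted, they were 16.6%, 11.6%, 11.6%, 7.93% and 2.84%. Without such neighbours they were 13.2%, 9.55%, 8.94%, 6.89% and 2.43%. In muscle the shares over all pairs were 36.3%, 37.4%, 32.7%, 16.6% and 10.6%, and with members left out 19.99%, 20.96%, 18.7%, 13.6% and 9.79%, where 10.9% of all tested cytosines showed such a difference.

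**Figure D4:**
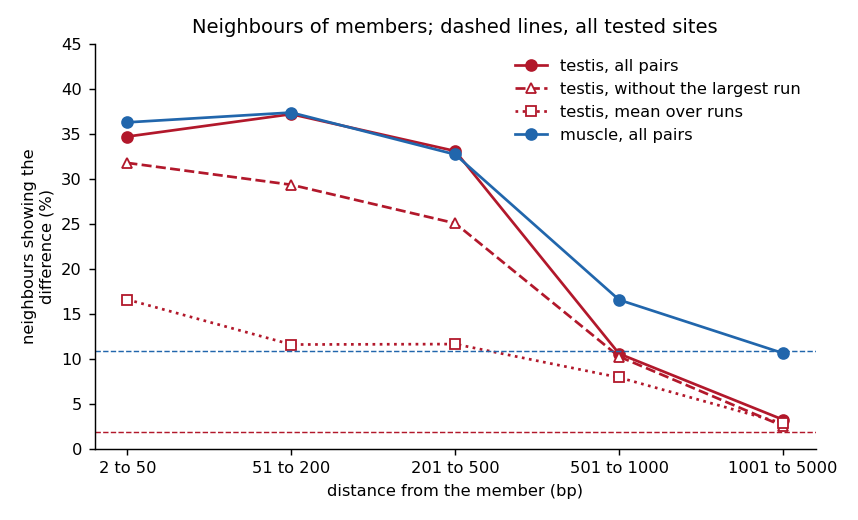
Share of cytosines around members that showed the same difference (20 points or more, same fish and sign), by distance from the member in bp, for testis and muscle, for testis without the region holding the most members, and for testis with each region counted once. The testis share is between 33.1% and 37.2% up to 500 bp, 10.6% at 501 to 1000 bp and 3.24% at 1001 to 5000 bp. All curves include neighbours that were themselves members.

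Most members stood alone, and a minority formed regions. Tested cytosines no more than 100 bp apart were joined into 90104 runs, of which 2406 (2.67%) held a member. Of these, 2042 held a single member and 364 held 2 or more, with 1128 members between them. In 283 of the 364 (77.7%) all members had the same deviating fish and direction. Runs with 5 or more members numbered 50 and held 393 members. A member of another CpG lay within 100 bp of 968 members (30.5%). Any other tested CpG lay that close to 96.3% of members, against 93.1% of all tested cytosines, which is no background for the 30.5%. Of the cytosines 2 to 50 bp from a member, counted once per pair, 21.5% were members, against 0.877% of all tested cytosines. Dense regions weigh on that share.

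The 4 runs with the most members differed in form. The first, at LG13 1264596 to 1265160 (565 bp), held 58 tested cytosines and 43 members, 42 of them with the same fish lower. Its mean level over cytosines in testis was 41.6% ± 14.4 in the deviating fish (SD, n = 58 cytosines), against 97.5% ± 2.65 and 96.3% ± 6.62 in the other 2 fish. In muscle it was 31.5% ± 26.9, against 98.2% ± 5.42 and 95.03% ± 7.81. The deviating fish lay below both others at all 58 cytosines in testis and at 55 of 58 in muscle. In testis this run was intermediate rather than unmethylated in the deviating fish, with levels between 14.75 and 83.0%. In muscle the levels of that fish ran between 0 and 100%.

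The run at LG22-25 17821149 to 17821643 (495 bp) had 3 different mean levels in testis. It held 26 tested cytosines and 25 members, of which 18 had the same fish higher. That fish averaged 91.6% ± 18.5 in testis (SD, n = 26 cytosines), against 42.6% ± 16.7 and 3.49% ± 3.14 in the other 2 fish. In muscle it averaged 83.9% ± 21.6, against 16.6% ± 18.8 and 3.83% ± 4.66. It lay above both others at 26 of 26 cytosines in testis and at 25 of 26 in muscle. The fish with the middle mean was above the lowest fish at 24 of 26 cytosines in testis and at 15 of 26 in muscle.

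The run at LG2 19510350 to 19510503 (154 bp) was near zero in 1 fish. It held 13 tested cytosines and 12 members, all with the same fish lower. That fish averaged 4.76% ± 4.44 in testis (SD, n = 13 cytosines), against 90.5% ± 18.04 and 89.2% ± 24.5 in the other 2 fish. In muscle it averaged 8.44% ± 11.5, against 88.8% ± 17.5 and 90.4% ± 26.4. The deviating fish lay below both others at 12 of 13 cytosines in each tissue.

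The run at LG17 3839627 to 3839700 (74 bp) went the other way. It held 12 tested cytosines and 11 members, all with the same fish higher. That fish averaged 59.2% ± 5.45 in testis (SD, n = 12 cytosines), against 1.92% ± 3.15 and 2.05% ± 2.44 in the other 2 fish. In muscle it averaged 52.7% ± 20.3, against 2.95% ± 4.12 and 1.64% ± 3.91. Its testis levels lay between 47.3 and 65.4%, with no cytosine of the other 2 fish above 8.76%. Cytosines within a run share reads, so the SD describes the run and is no error of the fish.

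**Figure D5:**
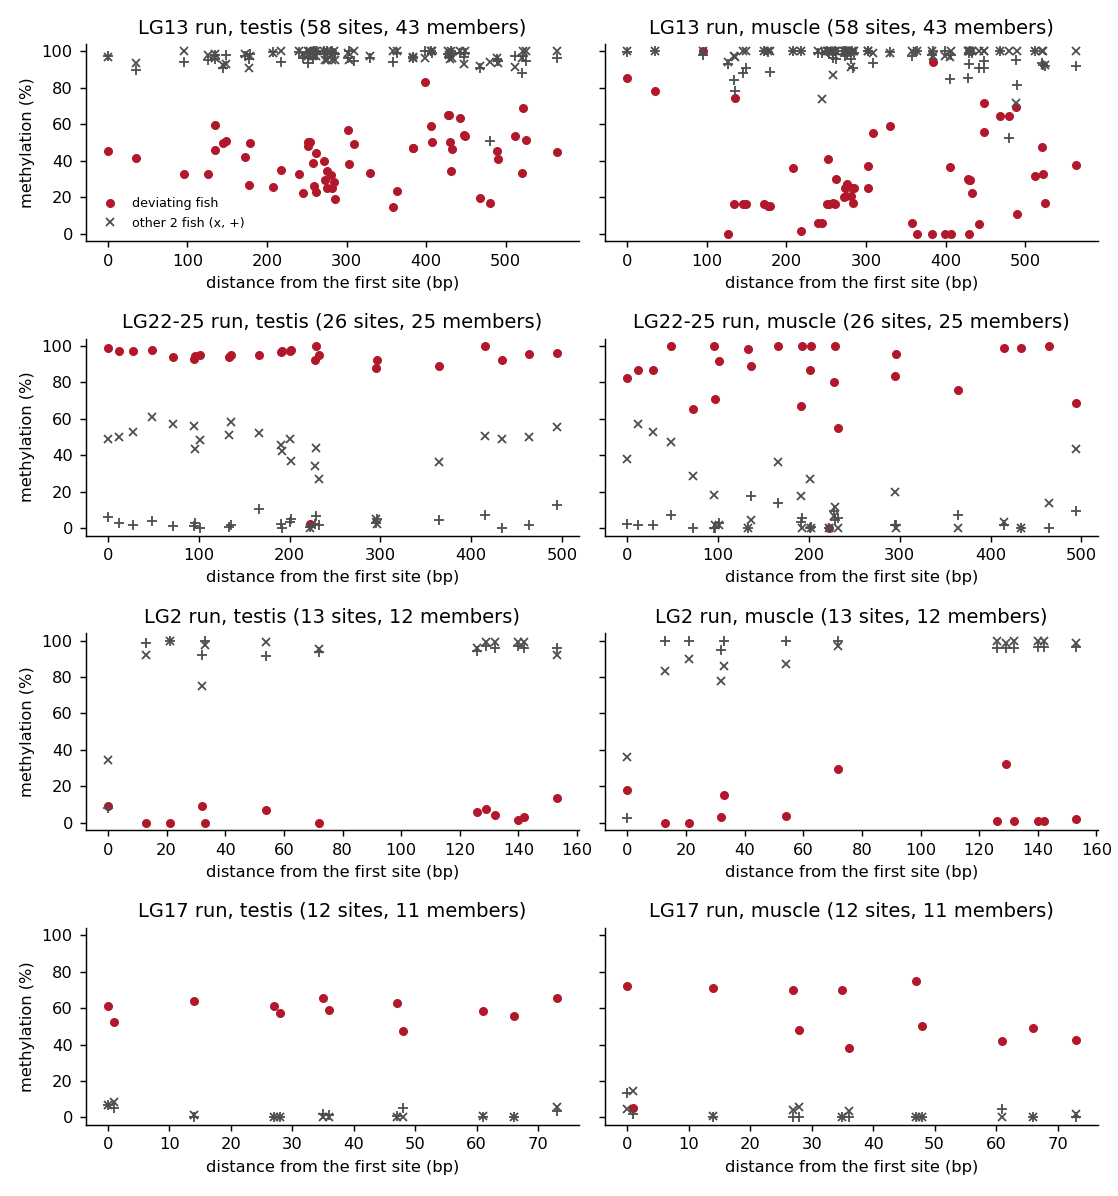
Methylation level (percent of reads) of each tested cytosine in the 4 runs with the most members, by distance from the first cytosine (bp), in testis and muscle. Circles show the deviating fish, and crosses and plus signs the other 2 fish. In the LG13 run the deviating fish averages 41.6% in testis, against 97.5% and 96.3%, and in the LG22-25 run the 3 fish average 91.6%, 42.6% and 3.49%.

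The contrast of testis with muscle was not used by the rule, although it rests on the same levels. Logistic regression on tissue over the 6 libraries called differentially methylated cytosines (DMCs), with a pooled difference over 15 points and an adjusted p (Benjamini-Hochberg) under 0.01. Toward testis 612 members (19.3%) were called, against 13.9% of all tested cytosines, and toward muscle 250 (7.89%), against 5.34%. The order of these shares turned with the limit on the difference. With no limit, 31.9% of members were called toward testis, against 32.8% of all tested cytosines, and 15.6% toward muscle, against 17.2%. With a limit of 25 points the order turned toward muscle alone. There 2.21% of members were called, against 2.61%, and toward testis 7.76%, against 6.89%. With fish as a block the shares were 16.1%, against 13.7%, toward testis and 5.55%, against 5.26%, toward muscle. The pooled testis minus muscle difference had a median of 3.25 points at members and 1.005 points at all tested cytosines. Members with the deviating fish lower were called toward testis at 451 of 2203 (20.5%), and those with it higher at 161 of 967 (16.6%). Toward muscle the counts were 151 (6.85%) and 99 (10.2%).

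On the other strand of members, 88 of 458 (19.2%) were called toward testis, against 10.8% of all cytosines with both strands tested, and 17 (3.71%) toward muscle, against 4.04%. At the same 458 members themselves the counts were 76 (16.6%) and 22 (4.803%). These calls rest on read counts that were scaled up, and they ignore the spread between fish, which the rule made large at members. Quasi-binomial regression and limma, which use that spread, called 0 members at the same limits. At an unadjusted p under 0.05 they reached 1 and 25 of the 3170 members, against 17.6% and 15.1% of all tested cytosines. Over all tested cytosines, quasi-binomial regression called 96 and limma called 0.

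Members occurred on all 24 linkage groups. The share was highest on LG24, with 143 of 12247 cytosines (1.17%, 0.992 to 1.37), and lowest on LG3, with 53 of 8484 (0.625%, 0.478 to 0.816). The deviating fish was lower at most members of every linkage group, with shares between 58.5% on LG10 and 84.6% on LG1B.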

How the data were processed

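RRBS was measured in testis and muscle of 3 sea bass. Per the paper's methods, the authors trimmed reads with Trimmomatic, aligned them to dicLab v1.0c with BSMAP 2.90 and called methylation with its methratio script. For each strand of a CpG the deposited columns give a count (coverage in reads) and a percent (reads still read as C). Coordinates are in that build.

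Cytosines below 10 reads, or above a library's 99.9th coverage percentile, in any library were dropped. This left 528301, on which the tests were fitted and adjusted. The 361535 on linkage groups are called the tested cytosines here. Methylated reads were coverage times percent, rounded. Coverage was scaled up to the median of the deepest library for all regressions and for limma, apart from the alternative with no scaling. Adjustment was by Benjamini-Hochberg. limma was run on log2 of methylated over unmethylated reads, with 0.5 added to each. A neighbour or other strand showed the difference at 20 points or more from the mean of the other 2 fish. Scripts were tested on simulated data.

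Libraries with 1 number were taken to share a fish. Deviations from the tissue mean correlated at 0.145, 0.185 and 0.163 for the same fish (different fish, -0.102 to -0.0684). Deviations from a mean cancel out, so the values for different fish are not independent of those for the same fish. Fish as a block was an alternative. The others were coverage minimums, other limits, no scaling, quasi-binomial regression, limma and each fish left out.

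Members, lists and tests were chosen with earlier results of these data known. Cytosines were named by rule, namely 2 members per direction with the largest summed difference and the other strand tested, the 4 runs with the most members, the cytosines just inside and outside the testis limit, and the linkage groups with the highest and lowest shares. Expression tables (1 value per gene and tissue, from 10 libraries) and the deposited fold change table, which holds the authors' comparison, were not used. No genome or annotation of the build was used here. Software was limma 3.58.1 in R 4.3.3, and numpy 2.4.6, scipy 1.17.1, pandas 2.3.3 and matplotlib 3.10.9 in Python 3.11.15.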

Additional observations from a re-analysis of the deposited data

How the results depend on the processing

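Of 94 alternative values, 56 kept their size and 38 moved. For counts the band was wide, so that 2220 and 3947 members, against 3170, were said to keep their size. A share or median kept its size inside the interval of the main value. Counts of calls were labelled as counts, whatever number of cytosines they came from. The cause of the moves was not tested. With a coverage minimum of 30 reads there were 1582 members, 1085 with the deviating fish lower, the other strand showed the difference at 87.1%, and 28.8% had a member of another CpG within 100 bp. At 5 reads the other strand showed it at 71.5%. With a testis limit of 30 points these values were 5232, 3613, 71.6% and 35.9%. With a limit of 50 points there were 1517 members, 1060 of them lower, and 28.3% had a member close by. With each fish left out in turn, members numbered 2444 to 2638, the other strand showed the difference at 74.1 to 82.7%, and 28.7 to 31.6% had a member close by. With 2 fish left, lower and higher cannot be assigned, so that count was not made.

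DMC calls at members numbered 246 toward testis and 70 toward muscle with a limit of 25 points, and 1011 and 495 with none. Set against all tested cytosines, the members' share was then higher toward testis and lower toward muscle at 25 points. With none it was lower in both directions. They numbered 0 in each direction with quasi-binomial regression, limma and limma with the block. With fish as a block in the logistic regression there were 511 and 176. The block was run on these calls alone. With each fish left out of the regression, 604 to 726 of the 3170 main members (19.05 to 22.9%) were called toward testis. Over all tested cytosines the shares were 13.6 to 15.7%. Toward muscle 267 to 327 (8.42 to 10.3%) were called, against 5.88 to 6.98%. At 20 reads 120 of 2220 members (5.405%) were called toward muscle, against 4.93% of all cytosines tested at that minimum. Toward testis 424 (19.1%) were called, against 13.5%. Of 188 cytosines on the other strand at 20 reads, 160 were called between fish in testis and 168 in muscle. The shares over all cytosines at that minimum are not given here for the calls between fish. The median testis difference of neighbours at 2 to 50, 51 to 200 and 201 to 500 bp was 3.43, 4.58 and 3.09 points. It was 1.25, 1.59 and 1.06 points with members left out, and 2.83, 2.92 and 2.14 points at 20 reads. Among alternatives chosen after seeing the data, leaving out other strands that were members gave 62.7% showing the difference, 172 calls in testis and 181 in muscle. With 20 reads for the cytosines meeting the testis limit, muscle followed at 81.8% and went the opposite way at 2.43%.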
